A study of Brassica juncea with 21 samples.

Results

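The genes described are those of membrane trafficking and exocytosis in nectaries and leaves of Brassica juncea (brown mustard). They are the transcripts whose product name holds syntaxin, vesicle-associated membrane protein, exocyst, ras-related protein Rab, coatomer, ADP-ribosylation factor or protein transport protein Sec, with 1 transcript kept per gene identifier, the one with the highest mean over the 7 groups. Names alone chose the gene identifiers, and expression values only which of several transcripts stands for an identifier. It found 211 transcripts, which gave 199 genes out of 14398 transcripts of 13872 gene identifiers. All 199 passed the filter on low values, which kept 14390 of the 14398 transcripts, and none of the 199 was listed at 0 in any group.

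Nectar leaves the nectary cell either through sugar transporters in the plasma membrane or packed in vesicles that fuse with it, and the second route runs on the genes listed here. Proteins for export enter the endoplasmic reticulum through the Sec61 channel. COPII coats (SEC23, SEC24, SEC31) carry them to the Golgi, and COPI coats, built of coatomer and recruited by the small GTPase ARF, return membrane and escaped proteins. Rab GTPases then give each vesicle its address, the exocyst tethers secretory vesicles to the plasma membrane, and the SNARE proteins, syntaxins on the target and VAMPs on the vesicle, pull both membranes together.

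RNA sequencing was done on 21 libraries in 7 groups of 3. Flowers of Brassica carry lateral nectaries, the main source of nectar in the family, and median nectaries, and each type was dissected by hand at 3 stages: pre-secretory, 24 h before anthesis; secretory, at full anthesis; and post-secretory, 12 h later. The groups were thus pre-secretory, secretory and post-secretory lateral nectaries, the same 3 stages of median nectaries, and leaf taken at the time of the secretory nectaries. Nectaries came from plants about 40 days old, an age not given for the leaf samples, and no genotype or treatment differed between the groups. About 100 nectaries, from a set of plants of its own, went into each nectary RNA sample. Dissection is placed at 4 to 8 h after dawn, so whether the groups share a time of day is not settled by the labels, and stage and time of day cannot be told apart.

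The deposited table holds 1 normalized expression value per transcript and group, with the 3 libraries already merged. Spread between libraries was therefore not available, and no difference below carries an error or a test. Differences are given on the log2(value + 1) scale or as the matching fold, a fold of the value plus 1, and a gene is counted as higher or lower from 2-fold up. The percent of all 14390 transcripts that pass the same threshold in a comparison is given as background. Levels of different genes were not compared, since the values are not stated to be per length. Each row is a transcript of Brassica rapa, 1 of the parents of the allopolyploid B. juncea, so reads of near-identical copies could have been shared or merged, and how they were assigned is not stated. In such bulk tissue, fewer cells of a type and less RNA per cell cannot be told apart.

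The nectary and photosynthesis marker genes were as the tissue labels say, with 1 exception. The summed value of 4 nectary genes (CRC, SWEET9, CWINV4, PIN6) ran from 15376 to 335314 in the 6 nectary groups, against 213 in leaf, and that of 7 photosynthesis transcripts from 30018 to 59493 in nectaries, against 945890 in leaf. The exception was PIN6, at 32, 1450 and 15 in lateral and 9790, 26085 and 2138 in median nectaries over the stages, against 35 in leaf, and so below leaf in pre-secretory and post-secretory lateral nectaries. Other marker sums moved with stage. Those of 4 pollen transcripts were 600, 3909 and 2984 in lateral and 1123, 6110 and 9677 in median nectaries from the pre-secretory through the secretory to the post-secretory stage, against 176 in leaf. The 4 stress or handling transcripts summed to 145, 3904 and 1736 in lateral and 131, 1352 and 700 in median nectaries over the stages, against 1801 in leaf. A phloem transcript (SUC2) was at 57, 376 and 731 in lateral and 10, 42 and 82 in median nectaries over the stages, against 1297 in leaf, and a guard cell transcript (KAT1) at 716, 215 and 49 in lateral and 461, 113 and 27 in median nectaries, against 76 in leaf. Both transcripts of dividing cells that were found went opposite ways at lateral secretion: MCM5 was at 393, 25 and 24 in lateral and 575, 616 and 336 in median nectaries, against 19 in leaf, and CDKB2;1 at 84, 1637 and 78 in lateral and 100, 291 and 52 in median nectaries, against 39 in leaf. The nectary genes themselves summed to 202725, 335314 and 15376 in lateral and 110285, 176256 and 28695 in median nectaries. None of the 3 tapetum loci looked for was found. Column totals ran from 7081592 in post-secretory lateral to 11197495 in secretory median nectaries, and the 199 genes took from 0.681% of the total in leaf to 1.295% in pre-secretory lateral nectaries.

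By role the 199 genes fell into 54 Rab GTPases, 23 GTPase-activating proteins of ARF (ARF-GAPs), 21 coatomer subunits, 21 ARF and ARF-like GTPases, 21 syntaxins, 15 COPII coat proteins, 13 EXO70 proteins, 12 core exocyst subunits, 10 VAMPs and 9 Sec61 subunits. The table pairs 141 of them with an Arabidopsis locus and leaves 58 unpaired. For 6 of the 141 the Arabidopsis annotation is of another protein family: 4 genes named AGD12 or AGD13 are annotated as calcium-dependent lipid-binding proteins, 1 named SEC31 as a zinc finger protein and 1 named SEC31-like as a formin-like protein. No exchange factor of the GNOM or BIG kind and no syntaxin-111 (KNOLLE) matched the names searched.

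Against leaf, more trafficking genes were at least 2-fold higher than lower in each nectary group. In lateral nectaries 56 were at least 2-fold higher and 10 lower at the pre-secretory stage (all transcripts: 23.0% and 19.8%), 71 higher and 16 lower at the secretory stage (29.6% and 27.7%), and 34 higher and 4 lower at the post-secretory stage (19.7% and 14.7%). In median nectaries the counts were 44 and 9 (21.8% and 20.1%), 50 and 16 (25.1% and 25.2%), and 32 and 11 (22.0% and 20.9%) over the same stages. As shares, between 2.0% and 8.0% of the 199 genes were at least 2-fold lower than leaf, where 14.7% to 27.7% of all transcripts were. Higher than leaf were 28.1% and 35.7% of them in pre-secretory and secretory lateral nectaries, and between 16.1% and 25.1% in the other 4 groups. Their median log2 difference from leaf was 0.58, 0.65 and 0.32 in lateral nectaries over the stages, beside 0.13, 0.10 and 0.17 over all transcripts, and 0.43, 0.53 and 0.28 in median nectaries, beside 0.07, 0.10 and 0.06. With quantile normalization the split for post-secretory lateral nectaries was 27 higher and 8 lower. After scaling to equal column totals the split for post-secretory median nectaries was 54 and 6. That scaling also gave 90 higher in pre-secretory and 76 in post-secretory lateral nectaries, where 4347 and 4624 of the 14390 transcripts were then higher. The 6 comparisons share the leaf value.

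**Figure D1:**
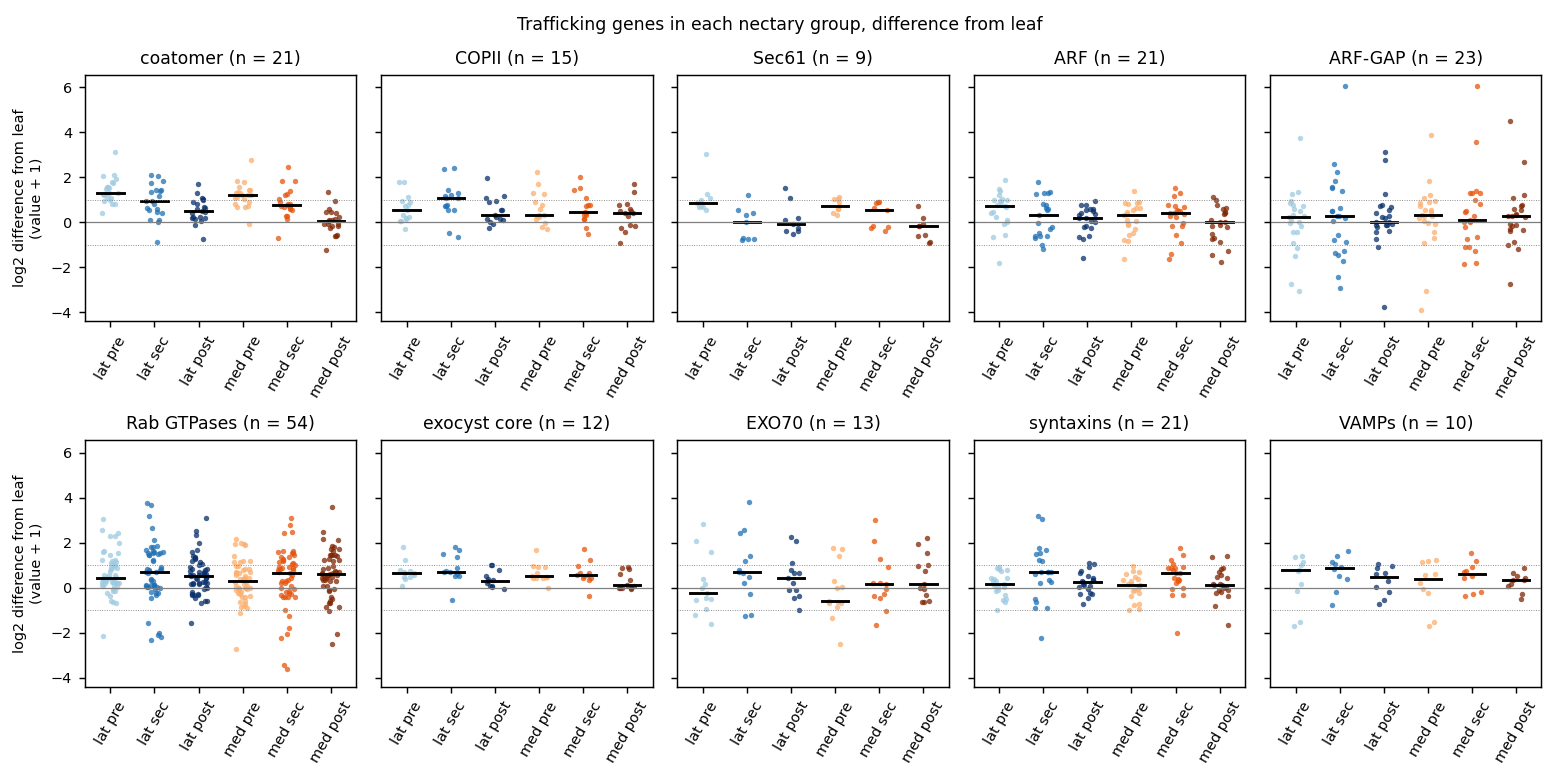
Log2 difference of each trafficking gene from leaf, on log2(value + 1), in the 6 nectary groups, with 1 panel per role; each point is a gene, the black bar the median of the role, and the dotted lines mark 2-fold. Coatomer genes lie above leaf at the pre-secretory stage (medians 1.31 lateral and 1.22 median) and close to it in post-secretory median nectaries (median 0.06, or -0.09 with quantile normalization), while ARF-GAPs spread to both sides.

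The 9 genes of the Sec61 channel, the entry to the endoplasmic reticulum, were highest before secretion relative to leaf. All 9 were above leaf before secretion in both nectary types, with medians of 0.86 in lateral and 0.75 in median nectaries, and 4 and 3 of them at least 2-fold. Of all transcripts 54.7% and 52.3% were above leaf, and 23.0% and 21.8% at least 2-fold. All 9 were lower at secretion than before it in both types, by a median log2 difference of -1.34 in lateral nectaries, with 5 genes at least 2-fold lower (all transcripts: 23.5%), and of -0.36 in median nectaries, with 0 genes at least 2-fold lower (all transcripts: 18.4%). The direction was the same with both other scalings. Scaling to equal column totals moved the median of all transcripts to -0.53 in the lateral comparison, beside -0.04 as deposited. Such scaling shifts all genes of a comparison nearly alike, so differences from the median of all transcripts are also given: that of Sec61 was -1.30 as deposited and -1.40 with quantile normalization.

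The 5 genes that were at least 2-fold lower in secretory lateral nectaries were the 3 for beta and the 2 for gamma, the small subunits of the channel, a split seen after the values were known. Their folds ran from 2.53 to 3.98, while the 4 genes for alpha, the subunit that forms the pore, were 1.32 to 1.61 times lower. Sec61 gamma-3 (LOC103873129) was at 214, 53 and 189 in lateral nectaries over the stages and at 150, 76 and 85 in median nectaries, against 89 in leaf. Sec61 beta-like (LOC103866191) was at 607, 206 and 237 in lateral and 445, 303 and 175 in median nectaries over the stages, against 335 in leaf. In secretory lateral nectaries both lay below their pre-secretory and their leaf value. Sec61 alpha-like (LOC103857525), the Sec61 gene with the highest mean, was at 2980, 2033 and 1483 in lateral and 3014, 2619 and 1239 in median nectaries over the stages, against 1386 in leaf, and was 2.11-fold lower at the post-secretory than at the secretory stage in median nectaries. A second beta-like gene (LOC103856559) was the Sec61 gene that differed most between the nectary types before secretion, with 312 in lateral and 76 in median nectaries (4.06-fold), against 37 in leaf.

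COPII coat genes, which bud vesicles from the endoplasmic reticulum, were higher than leaf mostly in secretory lateral nectaries. There 8 of 15 were at least 2-fold higher and none lower, with a median of 1.07 (all transcripts: 29.6% higher and 27.7% lower). In secretory median nectaries 4 of 15 were higher, near the background of 25.1%, and none lower (25.2%), with a median of 0.45. Differences between secretion and the stage before it were small. The lateral median of 0.39 turned to -0.10 after scaling to equal column totals. It stood 0.43 above the median of all transcripts both as deposited and after that scaling, and 0.34 with quantile normalization. At secretion 1 of 15 genes was at least 2-fold higher in each type (all transcripts: 21.5% lateral and 17.6% median), and none was lower (23.5% and 18.4%). That 1 gene was the SEC31-like LOC103868012, whose Arabidopsis match is the formin-like protein, at 578, 2817 and 1186 in lateral and 462, 1423 and 946 in median nectaries over the stages, against 528 in leaf. The Sec24-like CEF (LOC103848077), a cargo-binding coat protein, was at 894, 709 and 486 in lateral and 1240, 1058 and 443 in median nectaries over the stages, against 259 in leaf, and was thus highest before secretion in both types. SEC23 LOC103836801 had the same order of stages, with 550, 430 and 210 in lateral and 606, 432 and 186 in median nectaries, against 251 in leaf. After secretion SEC23 was at least 2-fold lower than at it in both types, and Sec24-like CEF 2.39-fold lower in median nectaries. Relative to the median of all transcripts, the COPII median of that step was -0.53 in lateral and -0.25 in median nectaries. With quantile normalization it was -0.37 and -0.07. The Sec31A-like gene LOC103830389, for an outer cage protein, was at 1857, 2257 and 1585 in lateral and 1815, 1770 and 1437 in median nectaries, against 1071 in leaf, and so differed by less than 2-fold between stages and was above leaf in each nectary group.

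Coatomer was the role set furthest above leaf before secretion, and all of its genes were lower after secretion than before it. Of the 21 coatomer genes, 16 were at least 2-fold higher than leaf in pre-secretory lateral and 15 in pre-secretory median nectaries (all transcripts: 23.0% and 21.8%), and none was lower (19.8% and 20.1%). Their medians above leaf were 1.31, 0.94 and 0.52 in lateral nectaries over the stages and 1.22, 0.78 and 0.06 in median nectaries, where the last turned to -0.09 with quantile normalization. After scaling to equal column totals the post-secretory medians were 0.96 in lateral and 0.37 in median nectaries. This held for all 21 genes in both types, where 48.6% of all transcripts were lower in lateral and 52.4% in median nectaries. The median log2 differences were -0.95 in lateral and -1.08 in median nectaries, and 8 and 12 genes were at least 2-fold lower (all transcripts: 14.3% and 21.7%). The direction held for all 21 genes in both types after scaling to equal column totals, with medians of -0.80 and -0.97 and 4 and 10 genes at least 2-fold lower, and with quantile normalization, with medians of -0.97 and -1.26. This comparison of the last with the first stage was chosen after the values were seen. The sums of the nectary, guard cell, dividing cell and photosynthesis markers were likewise lower after than before secretion in both types. Those of the pollen, phloem and stress or handling markers were higher. Within the nectary sum SWEET9 went the other way in median nectaries, with 1367 before and 8959 after secretion. The part of these markers in these differences and in those of Sec61 was not tested.

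The step to secretion had similar medians in the types, while the step after it had the lower median in median nectaries. In lateral nectaries 17 of 21 coatomer genes were lower at secretion than before it (51.1% of all transcripts) and 5 at least 2-fold (23.5%), with a median of -0.33, and in median nectaries 17 were lower (48.0%) and 2 at least 2-fold (18.4%), with a median of -0.29. From there to the post-secretory stage the median was -0.84 in median nectaries, with 5 genes at least 2-fold lower (all transcripts: 15.0%), or -0.37 and 0 genes after scaling to equal column totals. In lateral nectaries it was -0.40, with none at least 2-fold lower (all transcripts: 18.4%), and this median turned to 0.24 after that scaling. Relative to the median of all transcripts, the lateral value was -0.46 as deposited, -0.46 after that scaling and -0.19 with quantile normalization. That of median nectaries was -0.79, -0.83 and -0.74 in the same order. At the post-secretory stage all 21 genes were higher in lateral than in median nectaries, by a median of 0.52, where 56.9% of all transcripts were higher. The difference between the types in these steps was not tested.

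Coatomer gamma (LOC103837747; Arabidopsis AT4G34450, chromosome 4, 16471956 to 16476795, forward strand, in coordinates the table gives with no build named) was at 2766, 1716 and 1300 in lateral and 2267, 1977 and 881 in median nectaries over the stages, against 970 in leaf. Coatomer delta (LOC103847233) was at 2595, 1359 and 1258 in lateral and 2017, 1325 and 827 in median nectaries, against 878 in leaf. As deposited, both core subunits were below the leaf value after secretion in median nectaries and above it in lateral ones; after scaling to equal column totals they were above it in both (log2 differences of 0.17 and 0.22 in median nectaries). Coatomer beta'-1 (LOC103830410), an outer subunit, had the largest difference from leaf among them, with 268, 130 and 101 in lateral and 209, 172 and 79 in median nectaries, against 30 in leaf (8.68-fold and 6.77-fold higher before secretion). Among the zeta subunits, small partners of gamma, a pair was at least 2-fold lower already at the secretory stage: COPZ1 was at 187, 46 and 81 in lateral and 129, 63 and 28 in median nectaries, against 43 in leaf, and zeta-2-like (LOC103847914) at 311, 91 and 107 in lateral and 225, 110 and 59 in median nectaries, against 91 in leaf. Alpha-2-like (LOC103835112), the coatomer gene with the highest mean, did not follow them in lateral nectaries, with 2953, 3330 and 1959 there and 2728, 2086 and 1328 in median nectaries, against 1241 in leaf.

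**Figure D2:**
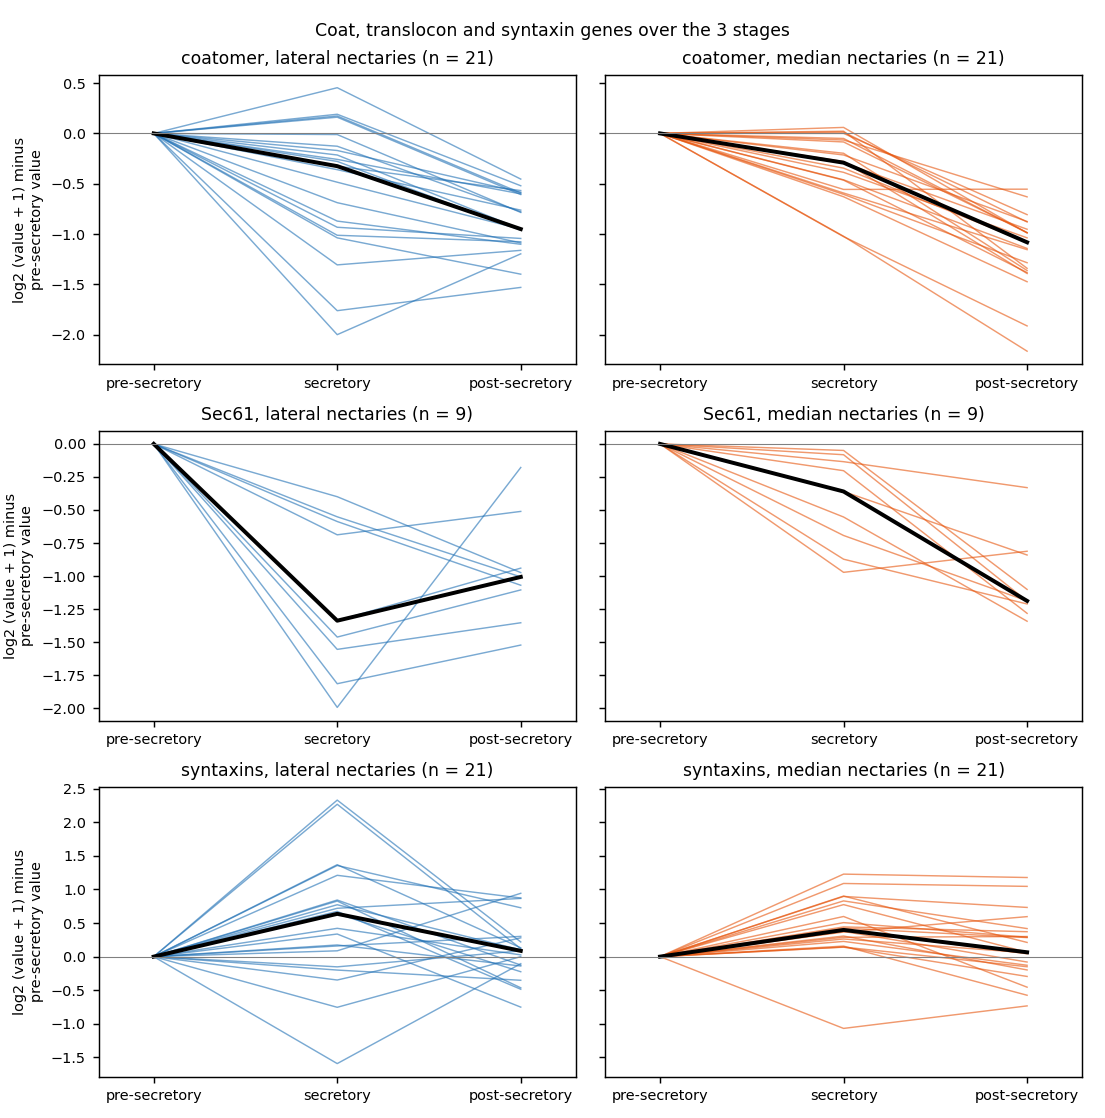
Log2(value + 1) of each coatomer, Sec61 and syntaxin gene minus its own pre-secretory value at the 3 stages, in lateral (left) and median (right) nectaries; thin lines are genes and the thick black line is the median. Coatomer and Sec61 lines end below 0 for every gene in both types, while syntaxin medians peak at the secretory stage as deposited (0.64 lateral and 0.40 median) but not after scaling to equal column totals (0.15 and -0.02, below the 0.24 and 0.17 of the post-secretory stage).

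The ARF GTPases that recruit coatomer had a like order of stages. Of the 14 ARF genes proper, 12 were lower at the post-secretory than at the pre-secretory stage in each type (all transcripts: 48.6% and 52.4%), with medians of -0.68 in lateral and -0.64 in median nectaries, and 12 and 11 were lower after scaling to equal column totals. Before secretion all 14 were higher in lateral than in median nectaries, by a median of 0.48 (49.9% of all transcripts were higher). None reached 2-fold (all transcripts: 7.90%). ARF1-like LOC103843841 was at 1115, 727 and 436 in lateral and 792, 733 and 383 in median nectaries over the stages, against 297 in leaf. ARF2-B (LOC103840752), the ARF gene with the highest mean among those above leaf, was at 3027, 2881 and 2051 in lateral and 2142, 2351 and 1655 in median nectaries, against 1632 in leaf. ARF1 LOC103862786 went the other way relative to leaf: it was at 2731, 1727 and 1331 in lateral and 2284, 1478 and 1188 in median nectaries, against 3968 in leaf, and so was 2.98-fold and 3.34-fold lower than leaf after secretion.

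Among the 7 ARF-like GTPases, ARL2 (LOC103874074), known for its part in tubulin folding, was at 113, 32 and 75 in lateral and 103, 58 and 39 in median nectaries, against 65 in leaf, and was thus lowest at the secretory stage in lateral nectaries and lowest at the post-secretory stage in median ones.

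The ARF-GAPs, which switch ARF off, differed from leaf in both directions, at secretion in shares near those of all transcripts. In secretory lateral nectaries 7 of 23 were at least 2-fold higher than leaf and 6 lower (all transcripts: 29.6% and 27.7%). Their log2 differences there ran from -2.90, for an AGD13-named gene annotated as a lipid-binding protein (LOC103868059), to 6.06. In secretory median nectaries 6 were higher and 5 lower (25.1% and 25.2%). AGD3 LOC103856010, a relative of an Arabidopsis ARF-GAP of the trans-Golgi network needed for vein patterning, was at 92, 466 and 60 in lateral and 101, 471 and 44 in median nectaries over the stages, against 6 in leaf. It was 66.7-fold higher than leaf in secretory lateral and 67.4-fold higher in secretory median nectaries, 5.02-fold and 4.63-fold higher at secretion than before it, and 7.66-fold and 10.5-fold lower at the post-secretory than at the secretory stage. Both nectary types thus gave near equal values at each stage, with the peak at secretion. A second AGD3 gene (LOC103846583) had the reverse order, with 54, 22 and 110 in lateral and 46, 34 and 89 in median nectaries, against 74 in leaf.

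AGD11 (LOC103848951) was low in nectaries and high in leaf, with 62, 95 and 38 in lateral and 63, 150 and 77 in median nectaries, against 522 in leaf. AGD13 LOC103832992 was at 4, 29 and 33 in lateral and 17, 58 and 112 in median nectaries, against 4 in leaf, so that it was lower in lateral than in median nectaries at each stage. The pollen marker sum was likewise lower in lateral than in median nectaries at each stage, and its part in this gene's values was not tested. AGD5 (LOC103851972), which in Arabidopsis acts at the trans-Golgi network, was at 997, 1858 and 804 in lateral and 1173, 1739 and 849 in median nectaries, against 701 in leaf. It was 2.31-fold lower in lateral and 2.05-fold lower in median nectaries at the post-secretory than at the secretory stage.

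**Figure D3:**
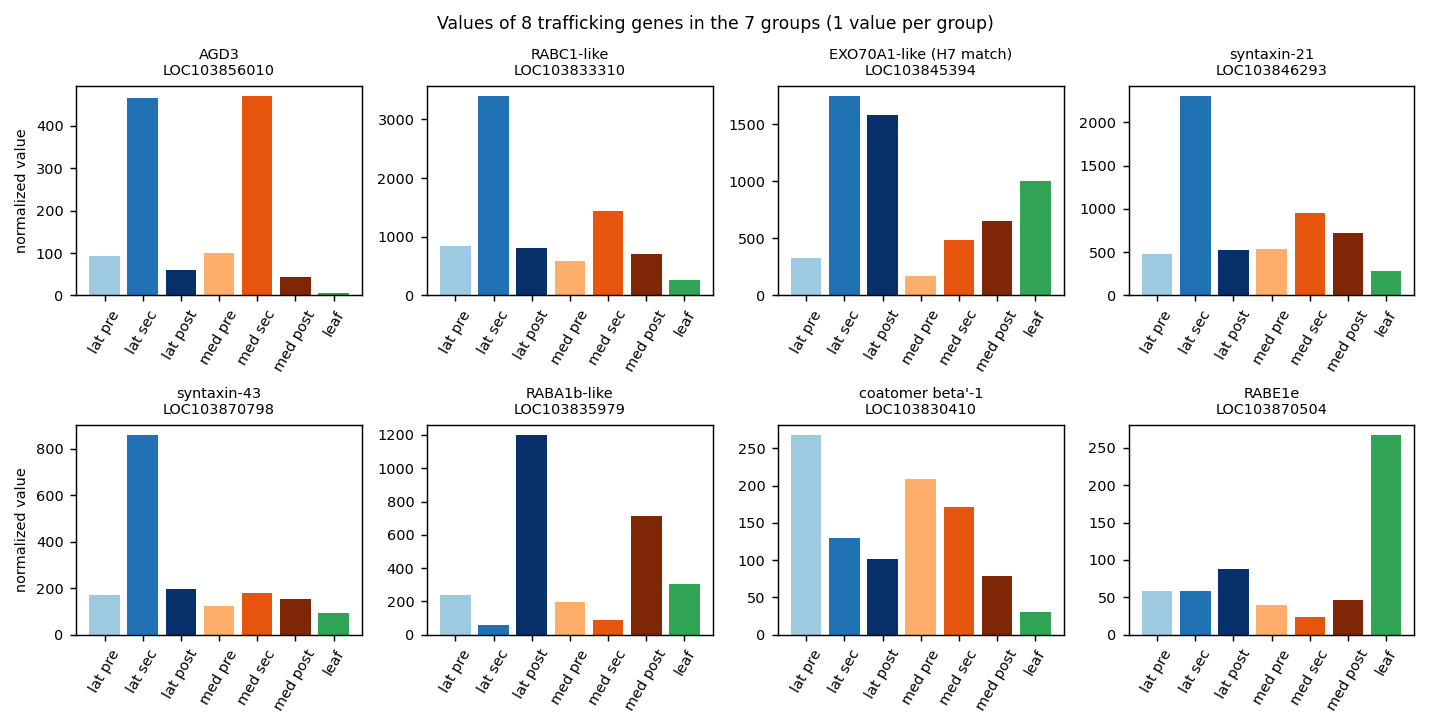
Deposited normalized expression value (1 value per group, no error available) of 8 named genes in the 6 nectary groups and leaf. AGD3 and RABC1-like peak at the secretory stage of both types, syntaxin-21, syntaxin-43 and the EXO70 gene matched to H7 reach their highest value in secretory lateral nectaries, RABA1b-like is lowest at secretion, coatomer beta'-1 is highest before it, and RABE1e is highest in leaf.

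Rab GTPases, which mark the identity of each compartment and its vesicles, moved by gene and by family. In secretory lateral nectaries 20 of 54 were at least 2-fold higher than leaf and 5 lower, with a median of 0.70 (all transcripts: 29.6% and 27.7%), and in secretory median nectaries 19 were higher and 6 lower, with a median of 0.67 (25.1% and 25.2%). Between the secretory and the pre-secretory stage 6 were at least 2-fold higher and 6 lower in lateral nectaries (21.5% and 23.5%) and 8 higher and 6 lower in median ones (17.6% and 18.4%), shares below the background in each case. The medians of 0.18 and 0.23 in those steps turned to -0.31 and -0.19 after scaling to equal column totals. Relative to the median of all transcripts they were 0.22 and 0.20 as deposited and 0.21 and 0.19 after that scaling. With quantile normalization these differences were 0.11 and 0.23. Before secretion 47 of 54 were higher in lateral than in median nectaries, 3 of them at least 2-fold (all transcripts: 7.90%).

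The Rab18 class (RABC) is linked to lipid droplets in animals and Arabidopsis. Its median difference from leaf in secretory lateral nectaries, 1.46, was the highest of the Rab families. There 4 of 5 genes were at least 2-fold higher than leaf (all transcripts: 29.6%). RABC1-like LOC103833310 (Arabidopsis AT1G43890, chromosome 1, 16646934 to 16648395, forward strand) was at 835, 3403 and 802 in lateral and 591, 1436 and 708 in median nectaries over the stages, against 269 in leaf. It was 12.6-fold higher than leaf in secretory lateral and 5.32-fold higher in secretory median nectaries. It was also 4.07-fold and 2.43-fold higher at secretion than before it. A second copy matched to the same Arabidopsis locus, RABC1 LOC103847710, was at 239, 367 and 199 in lateral and 179, 339 and 178 in median nectaries, against 39 in leaf. Both copies peaked at secretion in both types, and the stage step of the second was 1.53-fold and 1.89-fold. RABC2b (LOC103870505) did not follow them: it was at 118, 185 and 118 in lateral and 108, 32 and 217 in median nectaries, against 79 in leaf, and was 5.64-fold higher in lateral than in median nectaries at secretion. RABC2a LOC103847377 was close to the lower end of the table, with 26, 8 and 7 in lateral and 5, 3 and 6 in median nectaries, against 4 in leaf.

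The Rab2 class (RABB), of the Golgi, and the Rab5 class (RABF), of multivesicular endosomes on the way to the vacuole, were higher at secretion. All 3 RABB genes were higher at secretion than before it in both types (all transcripts: 39.5%). Their medians were 0.94 in lateral and 1.04 in median nectaries, and the direction stayed after scaling to equal column totals (0.45 and 0.62). RABB1b-like (LOC103872509) was at 451, 865 and 674 in lateral and 496, 967 and 1251 in median nectaries, against 377 in leaf. Of the 4 RABF genes, 3 were higher at secretion in both types (all transcripts: 39.5%), with medians of 0.87 and 0.82 over all 4. After scaling to equal column totals 2 were higher in lateral and 3 in median nectaries. RABF2a LOC103827815 was at 1381, 3383 and 1880 in lateral and 1161, 2405 and 2323 in median nectaries, against 1177 in leaf, and its second copy LOC103839137 at 172, 416 and 222 in lateral and 151, 275 and 353 in median nectaries, against 143 in leaf. Both copies were lower after than at secretion in lateral nectaries, while in median ones the first was about as high after secretion as at it and the second higher.

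The Rab11 class (RABA), which carries vesicles from the trans-Golgi network and recycling endosomes to the plasma membrane, had members of both directions. In lateral nectaries 2 of 15 were at least 2-fold higher and 4 lower at secretion than before it (21.5% and 23.5%), with a median of -0.77. RABA1b-like LOC103835979 (AT1G16920, chromosome 1, 5787489 to 5789147, reverse strand) was at 238, 59 and 1200 in lateral and 198, 86 and 715 in median nectaries over the stages, against 304 in leaf. Its value was 3.98-fold and 2.29-fold lower at secretion than before it, and 20.0-fold and 8.23-fold higher at the post-secretory than at the secretory stage. RABA5b (LOC103849313) was also lowest at secretion, with 90, 16 and 58 in lateral and 55, 5 and 17 in median nectaries, against 73 in leaf. RABA5c-like LOC103866698 had the reverse order, with 416, 1095 and 304 in lateral and 429, 780 and 284 in median nectaries, against 380 in leaf. These paralogs of a single sub-class thus had opposite extremes at secretion. RABA6b (LOC103835918) was the RABA gene furthest above leaf at secretion in lateral nectaries, with 213, 356 and 221 in lateral and 68, 177 and 316 in median nectaries, against 25 in leaf.

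RABA4a LOC103837569 increased along the 3 stages in both types, with 141, 224 and 365 in lateral and 82, 203 and 493 in median nectaries, against 136 in leaf. RABG2-like LOC103864302, of the Rab7 class of the vacuole, had the same order, with 28, 48 and 91 in lateral and 15, 38 and 87 in median nectaries, against 15 in leaf. Of the pollen markers, AGP6 and both VGD1 transcripts also increased along the stages in both types, while ACA9 was highest at secretion in both. Their sum increased along the stages in median nectaries and was highest at secretion in lateral ones. The part of these markers in the values of RABA4a and RABG2-like was not tested. RABE1e (LOC103870504), of the Rab8 class that works between Golgi and plasma membrane, was 3.01-fold to 10.7-fold lower than leaf in the 6 nectary groups, with 59, 58 and 88 in lateral and 40, 24 and 46 in median nectaries, against 267 in leaf. Its paralog RABE1a (LOC103863391) was higher in nectaries, with 1810, 2290 and 979 in lateral and 1495, 2053 and 955 in median nectaries, against 662 in leaf. RABD2b LOC103839540, of the Rab1 class between endoplasmic reticulum and Golgi, was at 1418, 2115 and 1250 in lateral and 1184, 1364 and 2101 in median nectaries, against 603 in leaf. The Rab6 class (RABH), of the Golgi like coatomer, was lower after than before secretion for all 4 genes in both types (all transcripts: 39.1%). The medians were -0.82 in lateral and -1.07 in median nectaries, and the direction held with both other scalings.

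The core of the exocyst, the octameric tether of secretory vesicles, stood above leaf in small steps. All 12 core genes were higher than leaf in pre-secretory lateral nectaries, with a median of 0.65 (54.7% of all transcripts were higher). Only 2 reached 2-fold (all transcripts: 23.0%). In secretory lateral nectaries 4 were at least 2-fold higher and none lower (29.6% and 27.7%). At the post-secretory stage 3 were at least 2-fold lower and 1 higher than at the secretory stage in lateral nectaries (18.4% and 23.9%), and 1 was lower in median ones (15.0%). The medians of those steps were -0.71 and -0.40, and after scaling to equal column totals they were -0.07 and 0.12. Relative to the median of all transcripts they were -0.77 and -0.35 as deposited and -0.77 and -0.34 after that scaling. With quantile normalization these differences were -0.39 and -0.16. SEC15B LOC103868220, the subunit that binds Rab GTPases in yeast, was at 500, 929 and 333 in lateral and 549, 676 and 526 in median nectaries over the stages, against 290 in leaf. Its second copy LOC103836755 was flat up to secretion and lower after it, with 106, 108 and 44 in lateral and 98, 102 and 46 in median nectaries, against 30 in leaf. EXO84B (LOC103843888) was at 611, 1177 and 720 in lateral and 560, 817 and 738 in median nectaries, against 414 in leaf. SEC3A (LOC103843909), which marks the site of tethering, was at 1182, 1897 and 927 in lateral and 1024, 1157 and 737 in median nectaries, against 738 in leaf. EXO84C (LOC103868114) had the reverse order in lateral nectaries, with 503, 206 and 609 there and 406, 233 and 317 in median nectaries, against 300 in leaf.

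EXO70 is the exocyst subunit that binds the plasma membrane, and plants have many copies of it. Of the 13 EXO70 genes, 9 have an Arabidopsis annotation in the table, and for 7 of these the product name and the annotation name different family members, so the annotation is used here. At the secretory stage 4 of 13 were at least 2-fold higher than at the pre-secretory stage in lateral nectaries (all transcripts: 21.5%) and 3 in median ones (17.6%). None was at least 2-fold lower (23.5% and 18.4%). The medians of 0.77 and 0.64 were 0.28 and 0.22 after scaling to equal column totals. As deposited these medians stood 0.81 and 0.61 above the median of all transcripts, and with quantile normalization 0.66 and 0.61.

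The gene matched to EXO70H7 (LOC103845394; AT5G59730, chromosome 5, 24064096 to 24066004, reverse strand) was at 330, 1749 and 1584 in lateral and 174, 484 and 656 in median nectaries over the stages, against 1001 in leaf. It was 5.29-fold and 2.77-fold higher at secretion than before it and 3.61-fold higher in lateral than in median nectaries at secretion. Secretory and post-secretory lateral nectaries were above leaf, while the other 4 nectary groups were below it. The stress or handling markers were likewise higher at secretion than before it and higher in lateral than in median secretory nectaries, and their part in this gene's values was not tested. The gene matched to EXO70D1 (LOC103830790) was the exocyst gene furthest above leaf, with 317, 629 and 189 in lateral and 151, 359 and 204 in median nectaries, against 44 in leaf (14.0-fold and 8.00-fold at secretion). EXO70D2 (LOC103832635) was at 209, 785 and 280 in lateral and 186, 290 and 283 in median nectaries, against 299 in leaf. It had its highest value in secretory lateral nectaries and the other nectary values below leaf. EXO70A1 (LOC103847376), the Arabidopsis isoform of polarised growth and cell wall deposition, was at 545, 1210 and 577 in lateral and 491, 883 and 480 in median nectaries, against 755 in leaf. EXO70F1 (LOC103833091) and EXO70B1 (LOC103856691) were above their pre-secretory values at both later stages. EXO70F1 was at 537, 1230 and 872 in lateral and 533, 1043 and 1076 in median nectaries, against 546 in leaf, and EXO70B1, known in Arabidopsis for immunity and autophagy, at 461, 787 and 774 in lateral and 369, 759 and 770 in median nectaries, against 678 in leaf. EXO70E2 (LOC103860563) was highest after secretion, with 53, 52 and 165 in lateral and 81, 95 and 252 in median nectaries, against 123 in leaf.

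**Figure D4:**
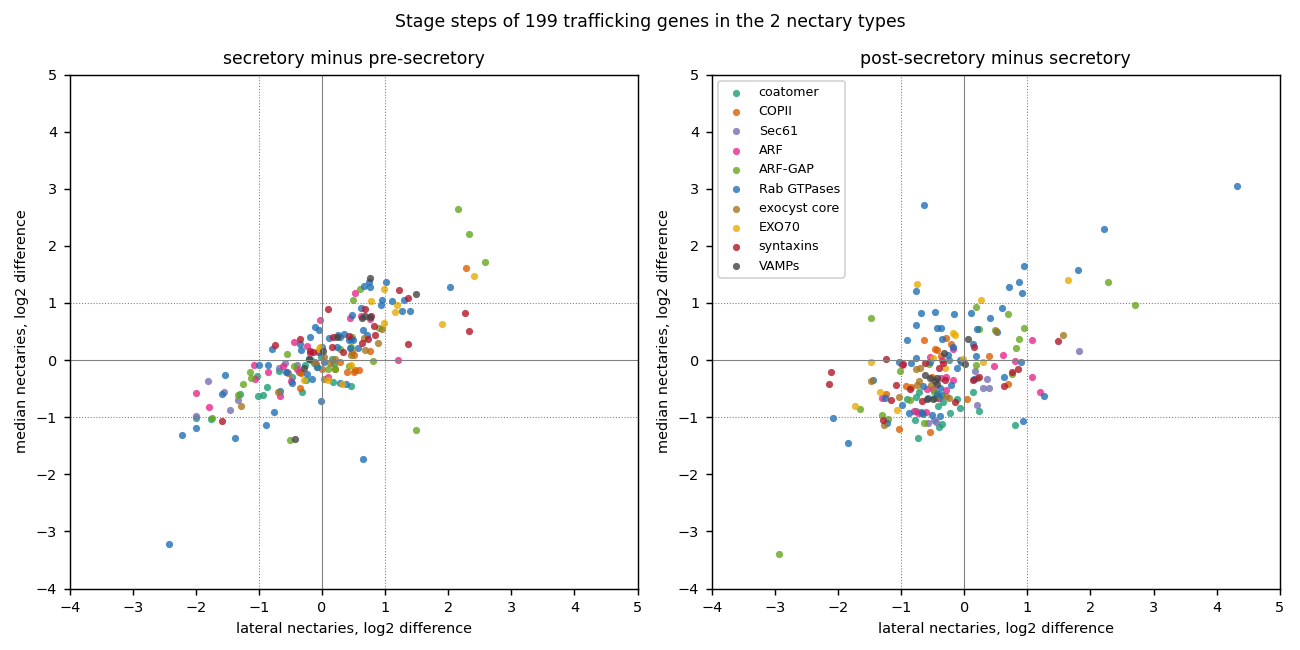
Log2 difference of each trafficking gene between adjacent stages in lateral (x axis) and median (y axis) nectaries, for secretory minus pre-secretory and post-secretory minus secretory, coloured by role. AGD3 and RABC1-like lie far to the upper right for secretory minus pre-secretory (steps of 5.02-fold and 4.63-fold for AGD3) and to the lower left for post-secretory minus secretory, and RABA1b-like the other way round.

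Syntaxins, the SNAREs of the target membrane, were near leaf before secretion and above it at secretion. Before secretion none of the 21 differed from leaf by 2-fold in either type. In secretory lateral nectaries 8 were at least 2-fold higher than leaf and 1 lower (29.6% and 27.7%), and in secretory median nectaries 4 were higher and 1 lower (25.1% and 25.2%). Relative to the pre-secretory stage 16 were higher in lateral nectaries, 5 at least 2-fold, and 20 in median nectaries, 2 at least 2-fold. Of all transcripts 48.0% and 50.9% were higher, and 21.5% and 17.6% at least 2-fold. The medians were 0.64 and 0.40, or 0.15 and -0.02 after scaling to equal column totals. As deposited they stood 0.68 and 0.37 above the median of all transcripts, and with quantile normalization 0.58 and 0.44.

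In lateral nectaries the largest steps were in syntaxins of the trans-Golgi network and the prevacuolar compartment, while in median nectaries syntaxin-52 and syntaxin-52-like had the largest. Syntaxin-21 (LOC103846293; AT5G16830, chromosome 5, 5533076 to 5535152, reverse strand), the prevacuolar syntaxin PEP12 of Arabidopsis, was at 478, 2307 and 519 in lateral and 538, 957 and 719 in median nectaries over the stages, against 278 in leaf. It was 4.82-fold and 1.78-fold higher at secretion than before, and 8.27-fold and 3.43-fold higher than leaf at secretion. Syntaxin-43 (LOC103870798; AT3G05710, chromosome 3, 1685262 to 1687229, forward strand), of the trans-Golgi network, was at 170, 859 and 198 in lateral and 125, 178 and 153 in median nectaries, against 94 in leaf. Its steps at secretion were 5.03-fold in lateral and 1.42-fold in median nectaries, and it was 4.80-fold higher in lateral than in median nectaries at that stage. Syntaxin-42 (LOC103836768), the other gene of this pair, was at 114, 296 and 125 in lateral and 103, 126 and 127 in median nectaries, against 92 in leaf. Before and after secretion these 3 genes differed by at most 1.38-fold between the nectary types. The difference between the types was not tested, and the stress or handling markers moved with it, with sums at secretion of 3904 in lateral and 1352 in median nectaries.

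Syntaxin-52-like (LOC103832523), a Qc-SNARE of the route to the vacuole, was higher at secretion in both types and stayed so, with 455, 1167 and 754 in lateral and 445, 948 and 920 in median nectaries, against 347 in leaf. The syntaxins of the plasma membrane, where vesicle content is released, had smaller steps. Syntaxin-121 (LOC103859411), known in Arabidopsis as PEN1 for its role in secretion at sites of fungal attack, was at 251, 451 and 230 in lateral and 166, 226 and 215 in median nectaries, against 280 in leaf. Syntaxin-132-like (LOC103850682), a plasma membrane syntaxin in Arabidopsis, was at 191, 327 and 205 in lateral and 151, 259 and 158 in median nectaries, against 141 in leaf. Its partner copy syntaxin-132 (LOC103855758) was at 217, 291 and 221 in lateral and 160, 215 and 195 in median nectaries, against 177 in leaf. All 3 were higher at secretion than before in both types, between 1.34-fold and 1.79-fold, and none by 2-fold, but after scaling to equal column totals syntaxin-132 was lower in lateral nectaries (log2 difference -0.07) and the other steps were between 0.01 and 0.36. Syntaxin-71-like (LOC103870522), a Qc-SNARE, was at 935, 1181 and 555 in lateral and 816, 900 and 665 in median nectaries, against 497 in leaf. Syntaxin-23-like (LOC103855658) was the 1 syntaxin at least 2-fold lower at secretion than before it, in both types, and also at least 2-fold lower than leaf there, with 614, 203 and 571 in lateral and 496, 236 and 298 in median nectaries, against 953 in leaf.

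VAMPs, the SNAREs on the vesicle, differed by group. The VAMP72 group holds the SNAREs that fuse secretory vesicles with the plasma membrane, and also VAMP727 of the route to the vacuole. All 7 of its genes were above leaf in pre-secretory and in secretory lateral nectaries, 4 of 7 at least 2-fold at each stage (all transcripts: 23.0% and 29.6%), with medians of 1.03 and 1.04. In median nectaries 6 of 7 were above leaf at each of these stages, 3 and 2 at least 2-fold (21.8% and 25.1%), with medians of 0.60 and 0.76. VAMP722 (LOC103867567; AT2G33120, chromosome 2, 14043785 to 14045186, reverse strand) was at 1664, 1953 and 1299 in lateral and 1378, 1818 and 1136 in median nectaries over the stages, against 621 in leaf. VAMP721 (LOC103844224) was at 1010, 1015 and 753 in lateral and 750, 839 and 630 in median nectaries, against 494 in leaf. At secretion they were 1.00-fold to 1.32-fold their value before it. Their second copies were lower at secretion in lateral nectaries, VAMP722-like (LOC103857472) 1.15-fold and VAMP721-like (LOC103843634) 1.22-fold. In median nectaries VAMP722-like was 1.02-fold higher and VAMP721-like 1.10-fold lower. VAMP727 (LOC103829971), which in Arabidopsis acts in fusion with the vacuole, was at 440, 745 and 482 in lateral and 376, 633 and 530 in median nectaries, against 390 in leaf. VAMP724 (LOC103870341) was highest before secretion, with 453, 335 and 229 in lateral and 605, 231 and 185 in median nectaries, against 260 in leaf.

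The 3 genes of the VAMP71 group were below leaf before secretion, with medians of -1.53 in lateral and -1.54 in median nectaries. The VAMP711 copies, of the vacuole membrane, were the 2 of 3 at least 2-fold lower in each type (all transcripts: 19.8% and 20.1%). VAMP714-like (LOC103856513) was closer to leaf, with log2 differences of -0.16 in lateral and -0.25 in median nectaries. VAMP711-like (LOC103851245) was at 135, 380 and 303 in lateral and 150, 335 and 363 in median nectaries, against 439 in leaf. VAMP711 (LOC103834573) was at 25, 43 and 45 in lateral and 22, 61 and 79 in median nectaries, against 74 in leaf. All 3 were higher at the post-secretory than at the pre-secretory stage in both types, by medians of 0.82 and 1.27, and with both other scalings, while all 21 coatomer and all 9 Sec61 genes were lower in that comparison.

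Over all 199 genes, steps of 2-fold between stages went both ways. In lateral nectaries 22 genes were at least 2-fold higher and 27 lower at secretion than before it (11.1% and 13.6%, beside 21.5% and 23.5% of all transcripts), and in median nectaries 22 and 13 (11.1% and 6.5%, beside 17.6% and 18.4%). After scaling to equal column totals the splits were 10 and 47, and 6 and 25. From the secretory to the post-secretory stage 13 were higher and 28 lower in lateral nectaries (23.9% and 18.4%) and 13 and 19 in median ones (17.5% and 15.0%), and with that scaling 41 and 7, and 32 and 1. The medians of that second step, -0.39 and -0.31, turned to 0.25 and 0.21. Against the median of all transcripts they stood at -0.45 and -0.26 as deposited, and at -0.26 and -0.15 with quantile normalization. The comparisons of neighbouring stages share the secretory value. Between the post-secretory and the pre-secretory stage 12 were at least 2-fold higher and 24 lower in lateral nectaries (17.0% and 14.3%) and 26 and 35 in median ones (19.8% and 21.7%), with medians of -0.26 and -0.13, beside 0.02 and -0.07 over all transcripts. After scaling to equal column totals the splits were 17 and 14, and 29 and 26.

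The lateral and median groups share no library, so steps could be set side by side across the types. At least 2-fold higher at secretion than before in both types were 12 of 199 genes (all transcripts: 13.4%). They were RABC1-like, AGD3 LOC103856010, the SEC31-like gene, syntaxin-52 and syntaxin-52-like, RABF2a, RABB1c-like, RABA2b-like, the gene matched to EXO70H7, VAMP711-like, AGD13 LOC103832992 and AGD12 LOC103831614. At least 2-fold lower in both were 8 (14.5%): coatomer zeta-2-like, COPZ1, RABA1c LOC103827778, RABA5b, RABA1b-like, RABD1 LOC103846024, syntaxin-23-like and AGD13 LOC103868059. At the post-secretory relative to the secretory stage 5 were higher in both types (12.1%) and 8 lower (8.64%). RABA1b-like, RABA5b and RABD1 were among the 5, and RABC1-like, AGD3, AGD5, RABE1a, RABA5c-like, SEC23 and SEC15B LOC103836755 among the 8. At the post-secretory relative to the pre-secretory stage 10 were at least 2-fold higher in both types (13.2%) and 19 lower (11.2%), and of these 19, 8 were coatomer and 4 Sec61 genes. At any size 102 of 199 were lower after than before secretion in both types, where 39.1% of all transcripts were.

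**Figure D5:**
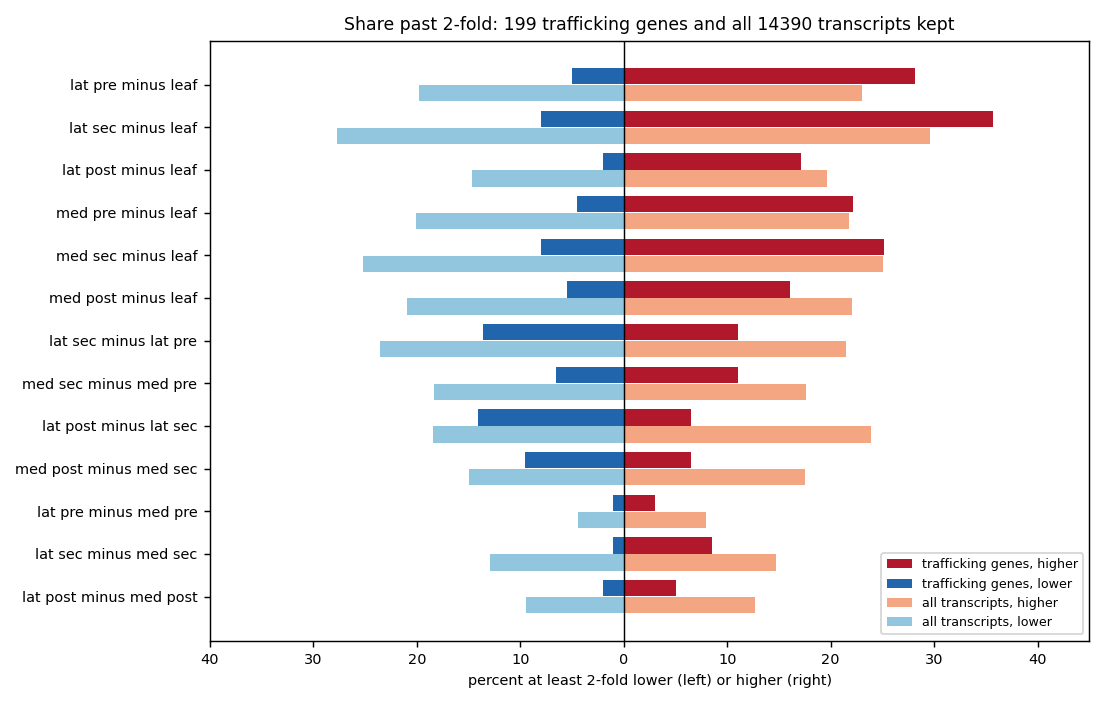
Percent of the 199 trafficking genes and of all 14390 transcripts kept that were at least 2-fold lower (left) or higher (right) in each of 13 comparisons. Against leaf the trafficking genes have shorter bars than all transcripts on the lower side, and between stages and between nectary types on both sides. Their higher bar against leaf is the longer in pre-secretory and secretory lateral nectaries (28.1% and 35.7% against 23.0% and 29.6%). It is about as long as that of all transcripts at the same stages of median nectaries.

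Between the nectary types, lateral values were mostly the higher, but after secretion with a median near that of all transcripts. Before secretion 148 of 199 genes were higher in lateral than in median nectaries (49.9% of all transcripts), but 6 by at least 2-fold and 2 lower (7.90% and 4.42%). At secretion 122 were higher and 75 lower (49.7% and 49.1%), 17 and 2 of them by at least 2-fold (14.7% and 12.9%). With quantile normalization 11 were at least 2-fold higher at that stage (all transcripts: 1798 of 14390). After secretion 123 were higher (56.9%), and 10 were higher and 4 lower by at least 2-fold (12.6% and 9.41%), or 15 and 3 after scaling to equal column totals and 10 and 9 with quantile normalization. The median log2 differences were 0.18, 0.16 and 0.12, beside 0.00, 0.00 and 0.11 over all transcripts. The 17 at secretion held 7 of 54 Rab, 3 of 13 EXO70 and 3 of 21 syntaxin genes (all transcripts: 14.7%), so the Rab and syntaxin shares were near the background. RABC2b (5.64-fold), syntaxin-43 (4.80-fold) and the gene matched to EXO70H7 (3.61-fold) were among the largest differences. The nectary types differed at secretion in the sugar exporter gene SWEET9 as well, with 147160 in lateral and 23865 in median nectaries.

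Other genes of the route were read from a list of 19 groups of product names that the rule does not cover, which gave 183 genes. In secretory lateral nectaries 71 of 183 were at least 2-fold higher than leaf and 13 lower (29.6% and 27.7% of all transcripts), and in secretory median nectaries 50 and 12 (25.1% and 25.2%). Clathrin, the coat of vesicles from the trans-Golgi network and the plasma membrane, had most genes above leaf: 17 of 20 genes for clathrin and its assembly proteins were at least 2-fold higher in secretory lateral nectaries and 1 lower, with a median of 1.46, and 10 were higher in secretory median nectaries, with a median of 1.02. After scaling to equal column totals 14 and 9 were higher. At the post-secretory stage 12 of 20 were at least 2-fold lower than at secretion in lateral nectaries (all transcripts: 18.4%) and 2 in median ones (15.0%), but 1 and 0 after that scaling. Clathrin heavy chain 1 (LOC103870372) was at 5071, 9963 and 3464 in lateral and 4341, 4689 and 3009 in median nectaries over the stages, against 2427 in leaf.

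Single genes that work with syntaxins are given as examples, chosen after their values were seen. SNAP33 (LOC103860575), which completes the plasma membrane SNARE complex with syntaxin-121 and VAMP721 in Arabidopsis, was at 322, 867 and 566 in lateral and 296, 683 and 547 in median nectaries, against 399 in leaf. KEULE (LOC103843134), a Sec1/Munc18 protein known for binding KNOLLE in dividing Arabidopsis cells, was at 1068, 2587 and 1353 in lateral and 1015, 1709 and 1584 in median nectaries, against 901 in leaf. Alpha-SNAP2 (LOC103841525), which helps take SNARE complexes apart for reuse, was at 1547, 2558 and 1076 in lateral and 1366, 2025 and 1170 in median nectaries, against 830 in leaf. Of the 8 genes for secretory carrier membrane proteins 6 were at least 2-fold higher than leaf in secretory lateral nectaries (29.6% of all transcripts), among them SCAMP3 (LOC103830519) at 519, 1584 and 610 in lateral and 429, 1017 and 698 in median nectaries, against 335 in leaf.

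Of 11 genes for TRAPP, the tether of vesicles at the Golgi, 5 were at least 2-fold higher than leaf in pre-secretory lateral nectaries and none lower (all transcripts: 23.0% and 19.8%), and 4 were at least 2-fold lower at secretion than before it there (23.5%). SAR1B-like (LOC103871647), the GTPase that starts a COPII coat, was at 951, 353 and 565 in lateral and 1393, 733 and 905 in median nectaries, against 594 in leaf. The alpha-like subunit of the signal recognition particle receptor (LOC103852575), which brings ribosomes to the Sec61 channel, was highest at secretion in both types, with 1852, 5264 and 1713 in lateral and 1593, 3356 and 1954 in median nectaries, against 1185 in leaf.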

How the data were processed

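Libraries were made with the TruSeq RNA v2 kit and read as 50 bp pairs, per the labels' protocols. The authors deposited 1 table of normalized expression scores, rounded to whole numbers, with 1 column per group of 3 libraries. Per the file headers 6 columns carry the mark UQN, read here as upper-quartile normalized although it is not spelled out, and the post-secretory lateral column lacks it. That column was taken as the same score, since its 75th percentile (476) lies within those of the other columns (450 to 543.75); this was not tested. The sources used here do not give the aligner, the counting or how libraries were merged, so the depth per library is unknown and no interval could be given. Brassica rapa names and Arabidopsis matches are the authors'.

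From the table, log2(value + 1) differences were computed for 13 comparisons between groups, for transcripts listed at 1 or more in 3 or more groups, with Python 3.11.15, pandas 2.3.3 and numpy 2.4.6. The threshold was 2-fold. The design foresaw tests per library; with 1 value per group none was run, and counts and medians stand beside those of all transcripts. The calling step was tested on simulated data. Genes were named by rule: per comparison the 5 largest differences each way past 2-fold with at least 10 in the higher group, the gene with the highest mean in each role, all genes of roles with up to 5, and a list of known secretory genes. Not all of these are described above, and others were named after their values were seen. The genes, roles and lists were chosen with earlier results of these data known. Other pseudocounts, scalings, filters and ways to pick members were tried. No column of per-sample values was left unused, and no sequences are shown.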

Additional observations from a re-analysis of the deposited data

Results flagged for a closer look

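AGD1 (LOC103854969), an ARF-GAP, had opposite stage steps of at least 2-fold in the nectary types: its secretory minus pre-secretory log2 difference was 1.49 in lateral and -1.22 in median nectaries. The values behind it are small, with 13 at the secretory and 4 at the pre-secretory stage in lateral nectaries, 2 and 6 in median nectaries, and 2 in leaf. It was the 1 gene of 199 with such a pair of steps, where 0.528% of all transcripts had one. With 1 value per group, the difference was not tested.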

How the results depend on the processing

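No paired analysis was possible because the table holds 1 value per group, and for the same reason no replicate could be left out. Of the 26 counts of trafficking genes at least 2-fold higher or lower in the 13 comparisons, all stayed within 1.5 times under a pseudocount of 0.1, no filter, all matching transcripts and summed transcripts per gene. After scaling to equal column totals, higher counts became 90 (main 56) in pre-secretory lateral, 76 (34) in post-secretory lateral and 54 (32) in post-secretory median nectaries against leaf, where the lower count became 6 (11). The same scaling gave 10 higher (22) and 47 lower (27) for secretory minus pre-secretory lateral, 6 (22) and 25 (13) for the median step, 41 (13) and 7 (28) for post-secretory minus secretory lateral, and 32 (13) and 1 (19) for median nectaries. The cause was not tested, but that scaling moved the median of all transcripts to -0.53, -0.37, 0.70 and 0.46 in these 4 steps.

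Quantile normalization gave 8 lower (4) in post-secretory lateral nectaries against leaf, 11 higher (17) in lateral minus median at secretion, and 9 lower (4) after it. A pseudocount of 10 gave 8 lower (13) in the median step to secretion and 1 lower (2) in lateral minus median before it. Keeping genes with a mean of at least 100, so with fewer genes, gave lower counts against leaf of 7 (16) and 2 (4) in secretory and post-secretory lateral and 9 (16) and 6 (11) in secretory and post-secretory median nectaries. That filter gave 16 (27) and 6 (13) lower at secretion in lateral and median nectaries, 7 (13) and 8 (13) higher after it, and in lateral minus median 1 (2) lower before secretion, 1 (2) lower at it and 6 (10) higher after it. Without ARF-GAPs and Sec61, so again with fewer genes, lower counts were 6 (10), 10 (16) and 2 (4) in lateral nectaries against leaf over the stages, 17 (27) at lateral secretion, and 0 (2), 0 (2) and 2 (4) in lateral minus median over the stages. Leaving out the 6 genes matched to another protein family, an alternative chosen after seeing the data, gave 1 lower (2) and 0 lower (2) in lateral minus median before and at secretion.

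Of the 1209 differences of the genes named by rule, which leave out other genes named in the text, none past 2-fold changed sign under the pseudocounts, both scalings or no filter, nor did the 884 left with a mean of at least 100. With equal totals 85 passed 2-fold anew and 65 no longer did, with quantile normalization 23 and 49, and with a pseudocount of 10, 40 no longer did. Without library values, a difference close to 2-fold, or of a gene with low values, cannot be told from spread between libraries.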
